A study of Mus musculus with 39 samples.

Results

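Cells hold their free cholesterol within narrow limits, and 8 genes of that control were followed here across fed and fasted mice: Srebf2, Scap, Insig1, Insig2, Stard4, Abca1, Abcg1 and Soat1. They were chosen by gene symbol, wherever the files of an experiment listed them, out of 11556 genes listed in at least 1 of the 5 experiments. The hepatocyte files listed 6 of the 8, without Abcg1 and Soat1. The files of the 4 monocyte experiments listed 7 of the 8, without Abca1. A gene outside a file was not analysed there, and every listed member passed the filter of a mean of at least 1 TPM (transcript abundance per length, scaled to the library), so that all were tested.

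RNA was sequenced in 39 libraries from mice aged 8 to 12 weeks. Hepatocytes of C57BL/6 mice, taken by liver perfusion and centrifugation, came from mice without food for 4 h (2 libraries), their fed counterparts at 4 h (3), mice without food for 12 h (3) and their fed counterparts at 12 h (2). Monocytes sorted from C57BL/6 bone marrow came from mice fasted for 4 h (4 libraries) against fed (4), from mice fasted for 17 h (4) against fed (3), and, in an experiment on fed mice alone, from CCR2-/- mice (3) against C57BL/6 mice (3). Monocytes sorted from the spinal cord came from C57BL/6 mice with experimental autoimmune encephalomyelitis (EAE, a model of inflamed spinal cord and brain) that were either fasted in cycles of 24 h for 4 weeks (4 libraries) or fed throughout (4). In every fasted group food was withdrawn, bedding was changed and water stayed available. The CCR2-/- mice lack the chemokine receptor that lets monocytes leave the marrow, in all cells. Whether the libraries of a group came from separate mice is not in the labels, so the p-values measure the spread between libraries, which may be technical.

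As background, SREBP2, the product of Srebf2, is made as a membrane precursor of the endoplasmic reticulum and is carried to the Golgi by its escort SCAP when sterols are scarce. There it is cut, and its released part enters the nucleus and switches on the genes of cholesterol synthesis and uptake, Srebf2 and Insig1 among them. INSIG1 and INSIG2 are anchors that hold SCAP and its cargo back when sterols are plentiful, and they also bring the enzyme HMG-CoA reductase to its degradation. STARD4 moves cholesterol between membranes, SOAT1 turns it into storage esters, and ABCA1 and ABCG1 export it to lipoproteins under the control of the oxysterol receptors called LXR. In the liver Insig1 is known as a gene that follows insulin and nuclear SREBP, while Insig2 has a transcript that insulin lowers.

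RefSeq promoter windows, each 250 bases before to 50 bases after a transcription start, were at hand for 6 of the 8 members, as 9 windows on GRCm38.p6. They are printed for Srebf2 and Insig1, which fell together in fasted hepatocytes, and for the 3 starts of Insig2, which rose in the same libraries. Capitals mark matches, searched on both strands. The first motif was the core of the sterol regulatory element, TCACCCCA. The second was the E-box, CACGTG. The third was the CCAAT box, by the letters of its name. None of the matches overlapped another.
Srebf2, chr15:82147019-82147318, plus strand: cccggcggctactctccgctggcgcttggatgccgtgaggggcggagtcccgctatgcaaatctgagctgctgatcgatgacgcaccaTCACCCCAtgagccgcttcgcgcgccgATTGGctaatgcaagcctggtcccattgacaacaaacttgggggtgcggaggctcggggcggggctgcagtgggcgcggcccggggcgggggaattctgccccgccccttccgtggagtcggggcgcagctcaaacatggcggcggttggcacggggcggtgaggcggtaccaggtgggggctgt
Insig1, chr5:28071162-28071461, plus strand: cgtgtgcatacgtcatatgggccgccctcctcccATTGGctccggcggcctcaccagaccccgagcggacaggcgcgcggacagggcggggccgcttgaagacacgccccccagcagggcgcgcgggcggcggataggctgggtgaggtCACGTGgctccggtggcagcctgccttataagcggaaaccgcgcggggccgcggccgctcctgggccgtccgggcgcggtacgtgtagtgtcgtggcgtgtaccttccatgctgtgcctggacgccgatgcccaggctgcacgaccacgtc
Insig2 start 1, chr1:121332540-121332839, minus strand: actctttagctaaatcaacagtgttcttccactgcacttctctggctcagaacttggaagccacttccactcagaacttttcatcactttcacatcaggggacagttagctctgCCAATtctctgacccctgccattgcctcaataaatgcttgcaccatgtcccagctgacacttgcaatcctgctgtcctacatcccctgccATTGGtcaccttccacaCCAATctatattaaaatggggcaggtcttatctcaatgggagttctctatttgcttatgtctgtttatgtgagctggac
Insig2 start 2, chr1:121327975-121328274, minus strand: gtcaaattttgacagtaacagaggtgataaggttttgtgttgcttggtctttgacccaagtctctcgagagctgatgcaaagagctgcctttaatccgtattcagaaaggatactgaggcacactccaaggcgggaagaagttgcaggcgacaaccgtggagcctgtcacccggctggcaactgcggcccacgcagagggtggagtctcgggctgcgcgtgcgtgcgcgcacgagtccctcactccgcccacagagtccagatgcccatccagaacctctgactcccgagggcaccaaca
Insig2 start 3, chr1:121327629-121327928, minus strand: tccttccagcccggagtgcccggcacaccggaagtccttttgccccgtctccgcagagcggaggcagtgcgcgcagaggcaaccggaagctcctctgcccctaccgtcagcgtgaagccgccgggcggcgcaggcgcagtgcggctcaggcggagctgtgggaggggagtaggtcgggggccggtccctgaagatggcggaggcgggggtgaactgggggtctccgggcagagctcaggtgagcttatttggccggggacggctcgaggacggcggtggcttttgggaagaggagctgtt
In the Srebf2 window the sterol element core began 162 bases before the start and a CCAAT match 135 bases before it. The Insig1 window held an E-box 101 bases before its start and a CCAAT match 216 bases before it. No window of Insig2 held the sterol element core or an E-box, and its start 1 held 3 CCAAT matches. The core was absent from the windows of Insig1, Scap, Abca1 and Soat1 as well, so it did not separate Insig1 from Insig2. Among the members whose windows are not printed, both windows of Scap and the window of Abca1 held an E-box, and that of Soat1 a CCAAT match, so that E-boxes stood in windows of members that fell and of one that rose at 4 h. Of 32851 mouse promoter windows of this length, 1.56% held the sterol element core, 7.15% the E-box and 37.4% a CCAAT match. The deposited values are per gene, so the starts of Insig2 could not be told apart in them.

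Total TPM per library lay between 982922 and 994023, and no read counts were among the data used, so the depth behind a value is unknown. Libraries of a group correlated with each other at 0.917 or above on the log2 scale, except in the fed spinal cord group, where the lowest r was 0.841. The value of 0.917 was that of the 2 hepatocyte libraries fasted for 4 h, against 0.964 or above in the other hepatocyte groups. Of these 2 libraries the second held 209 genes at 0 TPM and the first 75. The 3 fed marrow libraries of 17 h stood apart: TPM fell with transcript length at Spearman correlations of -0.53 to -0.50 across genes there, against -0.26 to -0.20 in the fasted libraries of 17 h. Of 10 hepatocyte markers 9 were listed in the hepatocyte files, and they summed to 61480 to 92010 TPM. Of 10 monocyte markers all were listed in the monocyte files, and no hepatocyte marker was.

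In hepatocytes fasted for 4 h, Insig1, Abca1 and Srebf2 fell while Insig2 and Scap rose. Stard4 did not pass the test. A member was called at an adjusted p under 0.05 in limma, fitted to log2(TPM + 1) over all genes, and all log2 fold changes are on that scale. At this threshold 26.8% of 8966 genes were called lower and 10.4% higher after 4 h, with a median log2 fold change of -0.22 over all genes. Beside this background, 3 of 6 members were lower and 2 higher, but the calls of Srebf2 and Scap were lost under several alternatives given below.

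Insig1 (chromosome 5, 28071363 to 28078662, plus strand) held 30.9 and 25.8 TPM in the 2 hepatocyte libraries fasted for 4 h, against 203, 210 and 193 TPM in the 3 fed ones. Every fasted library was far below every fed one, with a log2 fold change of -2.79 (SE 0.15, adjusted p = 4.0e-06 in limma). By size of change Insig1 ranked 40 of 8966 genes. After 12 h it held 10.7, 14.2 and 9.96 TPM in fasted libraries, against 167 and 172 TPM in fed ones. The log2 fold change at 12 h was -3.77 (SE 0.15, adjusted p = 7.4e-08 in limma), again rank 40.

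Insig2 (chromosome 1, 121304353 to 121332589, minus strand) moved the other way. Its levels were 199.8 and 145 TPM in libraries fasted for 4 h, against 102, 111 and 107 TPM in fed ones (log2 fold change 0.67, SE 0.12, adjusted p = 0.0024 in limma). The size at 4 h leaned on 1 library: without the first fasted library it was 0.43. After 12 h, Insig2 held 816, 825 and 879.8 TPM in fasted libraries and 307 and 321 TPM in fed ones (log2 fold change 1.42, SE 0.12, adjusted p = 1.1e-05). The fasted libraries of 12 h were the highest of all 39, and the mean of Insig2 over hepatocyte libraries stood at the 96.2 percentile of the genes listed there.

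In fed hepatocytes of 4 h Insig1 was the more abundant anchor, and in the other 3 hepatocyte groups Insig2 was. The ratio of Insig2 to Insig1, on the per-length TPM scale, averaged 6.03 ± 0.617 in hepatocytes fasted for 4 h (SD, n = 2), against 0.530 ± 0.0263 in fed ones (SD, n = 3). At 12 h it averaged 74.3 ± 15.2 in fasted libraries (SD, n = 3) and 1.85 ± 0.0250 in fed libraries (SD, n = 2). Within each time the lowest fasted ratio lay above the highest fed one. In the monocyte experiments no library had a ratio above 2.64.

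**Figure D1:**
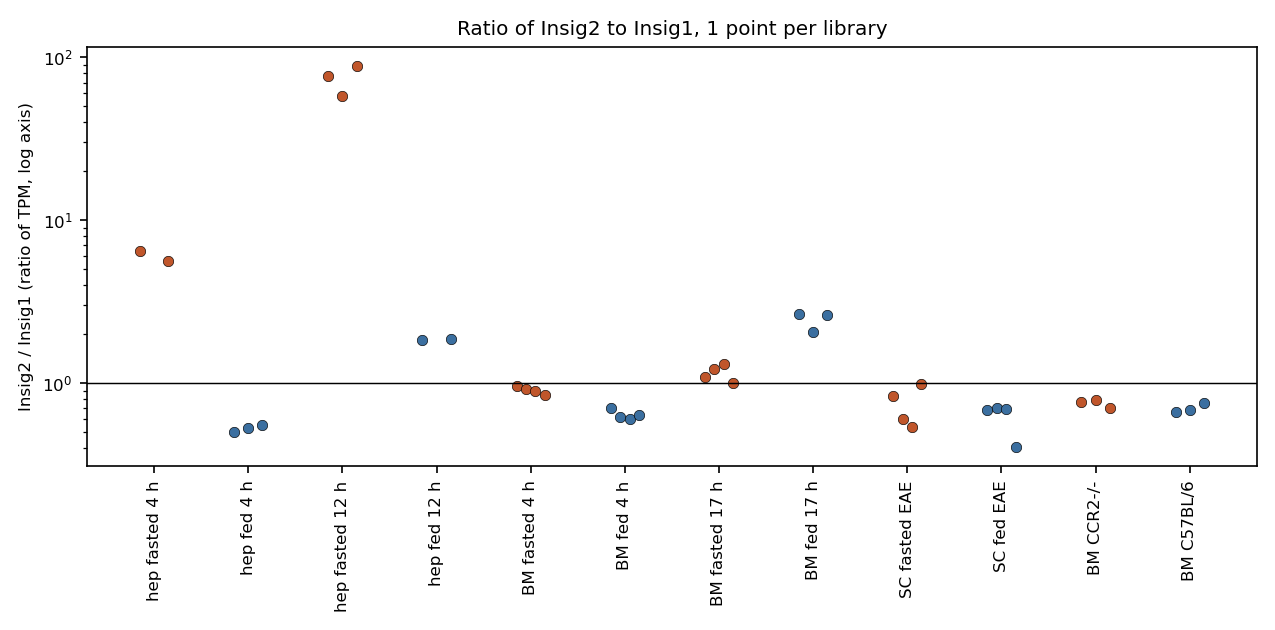
Ratio of Insig2 to Insig1 TPM in each of the 39 libraries on a log axis, with fasted or CCR2-/- groups in orange left of their fed or C57BL/6 groups in blue (hep, hepatocytes; BM, bone marrow monocytes; SC, spinal cord monocytes). Fasted hepatocytes of 12 h lie between 58.1 and 88.3, and fed hepatocytes of 4 h between 0.504 and 0.557.

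Srebf2 (chromosome 15, 82147181 to 82205379, plus strand) held 19.8 and 24.1 TPM in libraries fasted for 4 h, against 32.7, 32.5 and 33.3 TPM in fed ones. The groups did not overlap, and the log2 fold change was -0.57 (SE 0.15, adjusted p = 0.018 in limma). This call was lost under quantile normalization (adjusted p = 0.069) and without the first fasted library (-0.43, adjusted p = 0.064), and with the trend on transcript length removed the value was -0.30 (adjusted p = 0.14). After 12 h Srebf2 held 9.06, 9.08 and 11.6 TPM in fasted libraries and 25.6 and 25.4 TPM in fed ones (log2 fold change -1.29, SE 0.15, adjusted p = 1.2e-04). Each fasted library of 12 h was below each fed one by more than the spread of either group.

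Scap (chromosome 9, 110333288 to 110384950, plus strand), the escort of SREBP, held 109 and 163 TPM in hepatocytes fasted for 4 h, against 89.1, 103 and 99.9 TPM in fed ones. The 2 fasted libraries lay wide apart, with a log2 fold change of 0.45 (SE 0.15, adjusted p = 0.041 in limma). The call was lost without the second fasted library (0.16, adjusted p = 0.23) and without any 1 of the fed ones (0.39 to 0.49, adjusted p = 0.064 to 0.11). After 12 h the levels were 84.8, 81.2 and 80.4 TPM in fasted libraries and 70.9 and 71.7 TPM in fed ones, a log2 fold change of 0.20 that did not pass the test (95% interval -0.14 to 0.54, adjusted p = 0.33). The ratio of Srebf2 to Scap was 0.165 ± 0.0243 in hepatocytes fasted for 4 h (SD, n = 2), against 0.339 ± 0.0261 in fed ones (SD, n = 3). At 12 h the ratio was 0.121 ± 0.0204 in fasted libraries (SD, n = 3) and 0.358 ± 0.00511 in fed ones (SD, n = 2).

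Stard4 (chromosome 18, 33199355 to 33213862, minus strand), the sterol carrier, separated the 2 times. After 4 h it held 11.7 and 16.4 TPM in fasted libraries and 12.9, 15.03 and 10.1 TPM in fed ones, which overlapped (log2 fold change 0.14, 95% interval -0.47 to 0.74). After 12 h it held 2.55, 3.57 and 5.17 TPM in fasted libraries, against 23.6 and 22.3 TPM in fed ones. At 12 h it fell by 2.37 on the log2 scale (SE 0.27, adjusted p = 9.4e-05 in limma). The first 2 of these fasted values are the lowest of Stard4 in the 39 libraries.

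Abca1 (chromosome 4, 53030787 to 53159895, minus strand), the exporter of cholesterol to apolipoprotein A-I, did the reverse in time. After 4 h it held 2.28 and 2.88 TPM in fasted libraries, against 8.30, 8.79 and 7.77 TPM in fed ones (log2 fold change -1.38, SE 0.15, adjusted p = 2.0e-04). After 12 h the levels overlapped, with 28.2, 29.6 and 31.9 TPM in fasted libraries and 30.4 and 28.6 TPM in fed ones. The log2 fold change at 12 h was 0.02, with a 95% interval of -0.33 to 0.37 (adjusted p = 0.93). Other exporters of sterol in hepatocytes, Abcg5 and Abcg8, which form the transporter into bile, did not follow Abca1 at 4 h. Abcg8 rose to 33.7 ± 1.38 TPM in fasted libraries (SD, n = 2), against 22.2 ± 1.26 TPM in fed ones (SD, n = 3; log2 fold change 0.58, adjusted p = 0.0081 in limma), and Abcg5 did not pass the test (0.15, adjusted p = 0.42).

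At 12 h, 16.8% of 8966 genes were called lower and 23.4% higher in fasted hepatocytes, with a median log2 fold change of 0.05, beside 3 of 6 members lower (Insig1, Stard4 and Srebf2) and 1 higher (Insig2). These 4 calls held under every alternative that was run for them, each left-out library among them. Marker genes of other liver cells moved with these groups. All 14 Kupffer cell and macrophage markers were listed in hepatocyte files, and their sum was 2510 to 2571 TPM in libraries fasted for 4 h, against 1526 to 1572 TPM in fed ones, and 712 to 724 TPM in libraries fasted for 12 h, against 93.7 to 98.7 TPM in fed ones. None of the 14 was under 1 TPM in every library of a group. The 12 markers of liver sinusoidal endothelium summed to 718 to 878 TPM in libraries fasted for 4 h and 413 to 472 TPM in fed ones, and at 12 h to 549 to 565 TPM in fasted libraries and 40.8 to 45.1 TPM in fed ones. The 5 listed of 7 erythroid markers went the other way at 4 h, with sums of 1453 to 2940 TPM in fasted libraries and 3971 to 4937 TPM in fed ones, and were at 344 to 417 TPM in libraries fasted for 12 h, against 23.2 to 29.6 TPM in fed ones. At 12 h the 2 listed of 7 stellate cell markers summed to 232 to 258 TPM in fasted libraries and 16.7 to 17.1 TPM in fed ones, and the 6 listed of 10 lymphocyte markers to 16.1 to 38.1 TPM in fasted libraries and 0.0505 to 0.160 TPM in fed ones. In bulk RNA fewer cells of a type and less RNA per cell cannot be told apart, and the part of these cells in the members' levels was not tested.

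**Figure D2:**
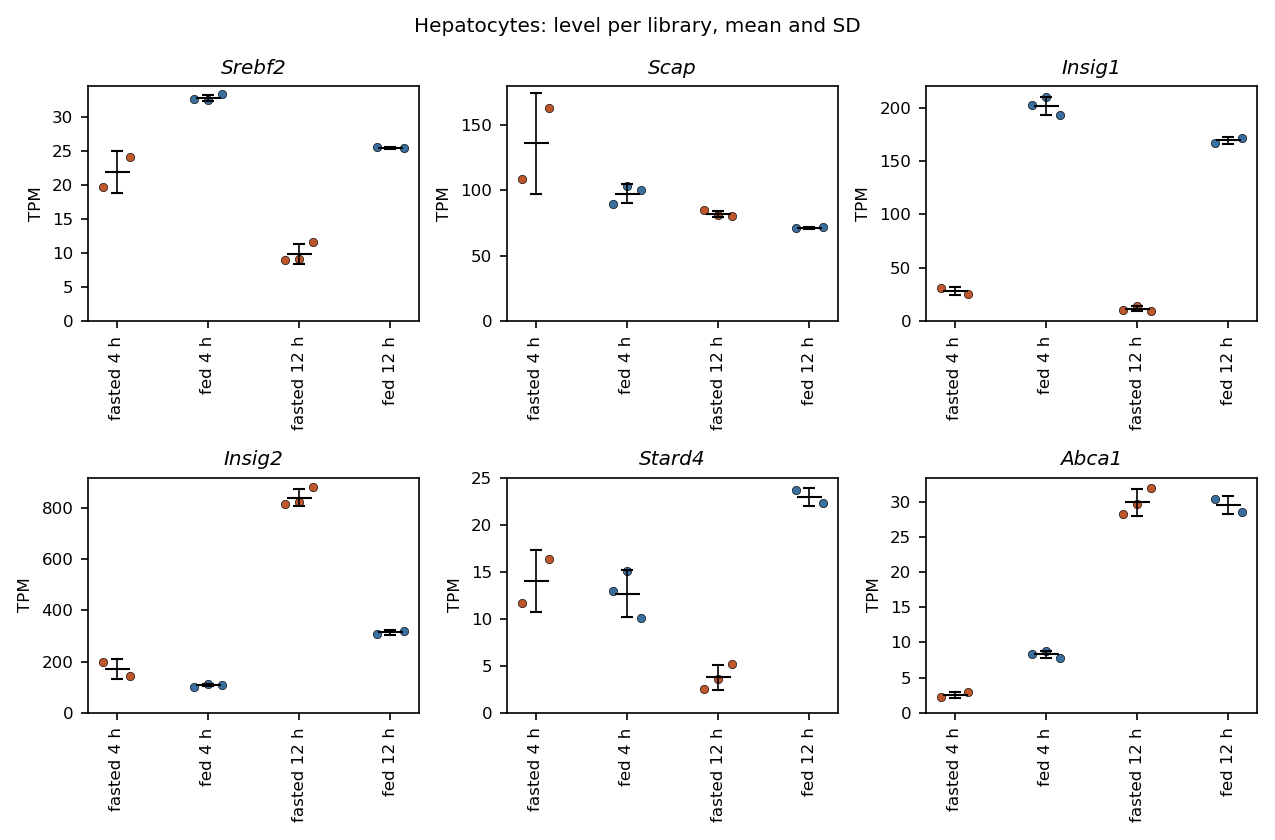
Level in TPM of the 6 listed members in hepatocytes, 1 point per library, with the group mean and SD as bars, fasted (orange) left of fed (blue) at 4 h and at 12 h. Insig1 is at or below 30.9 TPM in all fasted libraries and at or above 167 TPM in all fed ones, while Insig2 is highest after 12 h of fasting.

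The fasting effects of 12 h and 4 h were set against each other in 1 interaction contrast, in which 30.7% of 8966 genes were called in either direction. Stard4 differed most among the members, with an effect at 12 h minus that at 4 h of -2.50 (SE 0.38, adjusted p = 0.0013 in limma). For Abca1 the difference was 1.40 (SE 0.22, adjusted p = 0.0014), for Insig1 -0.98 (adjusted p = 0.0073), for Insig2 0.75 (adjusted p = 0.0086) and for Srebf2 -0.72 (adjusted p = 0.033). The median over all genes was 0.33, so that Insig2 was nearer to it than the other 4. With the length trend removed the Abca1 difference was 0.72, the Insig2 difference 0.36 (adjusted p = 0.14) and the Srebf2 difference -1.25 (adjusted p = 0.0021). Quantile normalization gave -1.50 for Insig1 and -1.18 for Srebf2. The call of Srebf2 was lost without any 1 of 8 of the 10 libraries (adjusted p = 0.055 to 0.11).

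The fed libraries of the 2 times were themselves different, and 59.1% of genes were called between them. Fed hepatocytes of 12 h held more Abca1 than those of 4 h (log2 fold change 1.71, adjusted p = 1.7e-05 in limma), more Insig2 (1.55, adjusted p = 6.5e-06) and more Stard4 (0.83, adjusted p = 0.025), and less Scap (-0.44, adjusted p = 0.030). Insig1 (-0.25, adjusted p = 0.17) and Srebf2 (-0.35, adjusted p = 0.072) did not pass the test. Without either fed library of 12 h the calls of Stard4 (adjusted p = 0.089 to 0.12) and Scap (adjusted p = 0.10 to 0.12) were lost. The correlation of TPM with transcript length was -0.24 to -0.23 in fed libraries of 12 h and -0.45 to -0.43 in fed libraries of 4 h. With that trend removed Abca1 differed by 0.63 and Stard4 by 0.17 (adjusted p = 0.62), and Srebf2 by -1.01 (adjusted p = 3.5e-04). Whether the 4 h and 12 h libraries were prepared together is not given, so time and preparation cannot be told apart in levels between them.

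Other genes of the pathway were counted from lists that left the members out. The lists overlap, and Mylip, Srebf1 and Lipa were counted in each list that holds them. Over all genes 10.4% were called higher and 26.8% lower at 4 h, and 23.4% higher and 16.8% lower at 12 h. Of 20 cholesterol synthesis enzymes, the targets of SREBP2, 16 fell after 4 h and none rose, and at 12 h all 20 fell, with a median log2 fold change of -1.14 at 4 h and -2.78 at 12 h. Mvd, a mevalonate pathway enzyme, was at 9.41 ± 4.06 TPM in libraries fasted for 4 h (SD, n = 2), against 99.7 ± 1.78 TPM in fed ones (SD, n = 3), a log2 fold change of -3.33. Fdps, which makes farnesyl diphosphate, was at 20.8 ± 1.78 TPM after 12 h of fasting (SD, n = 3) and 711 ± 17.7 TPM in fed libraries (SD, n = 2), a log2 fold change of -5.03. Of 16 tested genes of SREBP processing and sterol-regulated degradation 8 fell and none rose at 4 h, while 4 fell and 4 rose at 12 h. Srebf1, the sister gene of Srebf2, and Sec23b, a coat protein of vesicles that leave the endoplasmic reticulum, fell at both times.

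Uptake genes moved in both directions. Mylip, an LXR target that encodes a ubiquitin ligase, rose by 1.46 at 4 h (adjusted p = 4.9e-04 in limma) and by 2.97 at 12 h (adjusted p = 1.9e-06) on the log2 scale. Npc1, which releases cholesterol from late endosomes, rose by 0.88 (adjusted p = 3.3e-04) and 1.76 (adjusted p = 1.4e-06). Of 13 tested uptake and endosomal genes 5 rose and 3 fell at 4 h, and 4 rose and 2 fell at 12 h. Of 13 tested genes of LXR and its targets 7 rose and 2 fell at 4 h, and 3 rose and 3 fell at 12 h. That list also held Rxra, Rxrb, Ncor1 and Ncoa1. At 12 h the counts of this list, of the uptake list and of the SREBP processing list were near the shares over all genes. Soat2, the esterifying enzyme of hepatocytes, did not pass the test at either time (adjusted p = 0.087 at 4 h and 0.81 at 12 h).

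Of 11 tested sterol transfer proteins none rose and 4 fell at 4 h, and 3 rose and 2 fell at 12 h. Their counts at 12 h were again near the shares over all genes. Of 8 esterification and ester hydrolysis genes 2 rose and 1 fell at 4 h, and 3 rose and 3 fell at 12 h. Of 6 hydroxylases of oxysterols and bile acids 1 rose and 1 fell at 4 h. At 12 h 4 of them rose and 1 fell, among them Cyp8b1, the sterol 12-alpha-hydroxylase, at 1767 ± 23.0 TPM in fasted libraries (SD, n = 3) and 447 ± 21.3 TPM in fed ones (SD, n = 2).

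In marrow monocytes fasted for 4 h, Insig1 was the only 1 of 7 members that passed the test. It held 30.4, 27.6, 25.6 and 27.0 TPM in fasted libraries, against 37.3, 41.2, 39.7 and 46.0 TPM in fed ones. The groups did not overlap, and it fell by 0.55 on the log2 scale (SE 0.10, adjusted p = 0.046 in limma). At this threshold 0.159% of 9428 genes were called lower and 0.265% higher, with a median log2 fold change of -0.07. The call sat at the threshold: with each library centred on its median the value was -0.51 (adjusted p = 0.051), and it was lost without any 1 of 7 of the 8 libraries (adjusted p = 0.065 to 0.15).

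Srebf2 held 22.7, 17.7, 20.0 and 29.6 TPM in these fasted libraries and 30.4, 38.5, 37.8 and 29.7 TPM in fed ones, a log2 fold change of -0.59 (95% interval -0.93 to -0.26) that missed the threshold (adjusted p = 0.14 in limma). The highest fasted library was just below the lowest fed one. Stard4 held 12.8, 11.9, 14.9 and 12.1 TPM in fasted libraries and 21.3, 16.7, 17.8 and 20.9 TPM in fed ones (log2 fold change -0.53, 95% interval -0.80 to -0.26, adjusted p = 0.10). Scap, Insig2, Abcg1 and Soat1 overlapped between the groups, with log2 fold changes of -0.06, -0.07, -0.01 and 0.13 (adjusted p = 0.48 to 0.97). For Insig2 the 95% interval was -0.31 to 0.18. Soat1 (chromosome 1, 156424525 to 156474331, minus strand) was the most abundant member in marrow, with 236 ± 18.6 TPM in fasted libraries, against 216 ± 16.2 TPM in fed ones (SD, n = 4 each). Abcg1 (chromosome 17, 31057675 to 31117988, plus strand), the exporter to mature high-density lipoprotein, had means of 20.0 ± 4.76 TPM when fasted and 20.0 ± 3.32 TPM when fed (SD, n = 4 each).

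Among the pathway lists in these libraries, 3 of 17 tested cholesterol synthesis enzymes fell and none rose, with a median of -0.43. Fdps was at 94.8 ± 9.58 TPM in fasted libraries and 159 ± 11.0 TPM in fed ones (SD, n = 4 each; log2 fold change -0.74, adjusted p = 0.0053 in limma). Idi1 and Sqle also fell, as did Lipa, the acid lipase that frees cholesterol from lipoproteins in lysosomes. Of 17 genes of SREBP processing none was called. The 4 listed of 7 erythroid markers summed to 40.9 to 93.5 TPM in fasted libraries and 4.28 to 39.5 TPM in fed ones, and the 2 listed of 7 microglia markers to 266 to 345 TPM in fasted libraries and 392 to 440.3 TPM in fed ones; their part in the members' levels was not tested.

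The fasting effect of 4 h was compared between hepatocytes and marrow monocytes over 7295 shared genes, of which 24.7% were called. Insig1 fell further in hepatocytes (effect in hepatocytes minus effect in marrow -2.24, SE 0.16, adjusted p = 8.1e-06 in limma). The Insig2 effect was higher in hepatocytes by 0.73 (SE 0.20, adjusted p = 0.018), and by 0.50 without the first fasted hepatocyte library (adjusted p = 0.061). For Srebf2 the difference was 0.03 with a 95% interval of -0.52 to 0.57 (adjusted p = 0.95). Scap (0.52, adjusted p = 0.19) and Stard4 (0.67, adjusted p = 0.071) did not pass the test.

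After 17 h in marrow, TPM as deposited gave Scap, Insig1, Soat1, Srebf2 and Insig2 higher and Stard4 lower in fasted monocytes, but most genes did the same as the first 5. Of 9134 genes 75.4% were called higher and 14.0% lower, and the median log2 fold change over all genes was 1.18. A count of 5 of 7 members higher is near that background. Marker sums moved with these groups too, without overlap: the 10 monocyte markers were at 123100 to 140900 TPM in fasted libraries and 78240 to 83570 TPM in fed ones, and the 4 listed of 10 lymphocyte markers at 93.9 to 128 TPM in fasted libraries and 177 to 269 TPM in fed ones. Listed Kupffer cell and macrophage markers were at 1106 to 1249 TPM in fasted and 607 to 733 TPM in fed libraries, and sinusoidal endothelium markers at 284.5 to 337 and 192 to 227 TPM. The 1 listed of 7 microglia markers was at 274 to 322 and 172 to 182.5 TPM, and the 1 listed of 8 neural and glial markers at 60.1 to 78.6 and 9.96 to 13.75 TPM. The sums of the listed neutrophil and erythroid markers overlapped, and the part of other cells in the members' levels was not tested. Under 3 other scalings of the libraries Stard4 stayed lower and Scap and Insig1 stayed higher, while Srebf2, Insig2 and Abcg1 turned round. The steeper fall of TPM with transcript length was in every fed library of 17 h and in no fasted one. Fasting and this difference between libraries therefore cannot be told apart for any member at 17 h, under any scaling.

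Stard4 held 7.62, 5.10, 6.24 and 7.35 TPM in monocytes fasted for 17 h, against 11.9, 15.9 and 11.7 TPM in fed ones. It fell by 0.91 on the log2 scale (log2 fold change -0.91, SE 0.17, adjusted p = 4.7e-04 in limma), with groups that did not overlap. With each library centred on its median the value was -2.00, with quantile normalization -2.27 and with the length trend removed -2.51.

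Srebf2 held 10.5, 11.4, 11.2 and 15.6 TPM in fasted libraries and 6.88, 5.43 and 5.0 TPM in fed ones (log2 fold change 0.96, adjusted p = 2.9e-04 in limma). Centred on the median it was -0.14 (adjusted p = 0.39), after quantile normalization -0.39 (adjusted p = 0.024) and with the length trend removed -0.65 (adjusted p = 0.0011). Insig2 held 28.9, 28.0, 31.8 and 25.9 TPM in fasted libraries and 20.6, 12.2 and 20.1 TPM in fed ones (0.70, adjusted p = 0.0035). Its value was -0.39, -0.43 and -0.45 under the same 3 scalings. Abcg1 held 6.00, 8.07, 8.63 and 14.1 TPM in fasted libraries and 7.99, 6.36 and 4.78 TPM in fed ones, which overlapped (0.43, adjusted p = 0.13), and its value was -0.66, -0.95 and -1.18. No direction can be given for these 3 genes.

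Scap held 11.7, 11.2, 12.7 and 20.3 TPM in fasted libraries, against 3.11, 1.65 and 1.57 TPM in fed ones (log2 fold change 2.27, SE 0.23, adjusted p = 6.6e-06 in limma). Insig1 held 26.4, 23.0, 24.3 and 25.8 TPM in fasted libraries and 7.80, 5.93 and 7.67 TPM in fed ones (1.68, SE 0.13, adjusted p = 7.6e-07). Both stayed higher in fasted libraries under each scaling, at 0.70 to 1.17 for Scap and 0.42 to 0.58 for Insig1. Soat1 held 157, 174, 174 and 215 TPM in fasted libraries and 61.6, 60.8 and 45.8 TPM in fed ones (1.67, adjusted p = 1.5e-06), and 0.08 with the length trend removed (adjusted p = 0.50). The fed libraries of 17 h were also below all other fed marrow libraries in Srebf2, Scap, Insig1, Insig2, Abcg1 and Soat1, in levels set across files that were normalized separately.

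**Figure D3:**
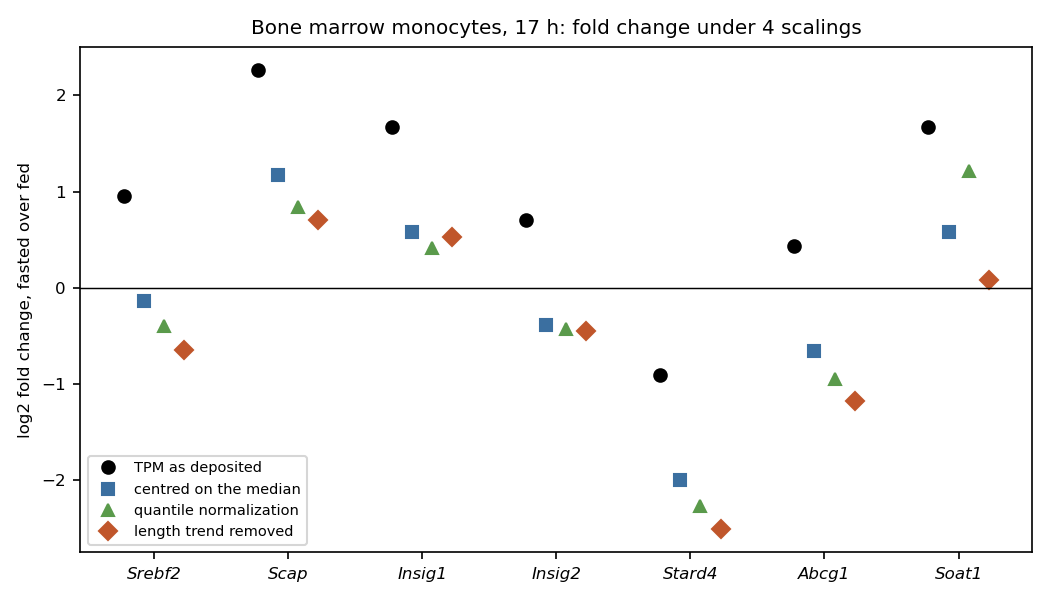
Log2 fold change, fasted over fed, of the 7 listed members in marrow monocytes after 17 h, under TPM as deposited and 3 other scalings (centred on the median, quantile normalization, and length trend removed). Stard4 is below 0 under all 4, Scap and Insig1 above 0 under all 4, and Srebf2, Insig2 and Abcg1 cross 0.

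The lists showed the same shift at 17 h. Of 17 SREBP processing genes 16 were called higher and none lower, of 12 uptake genes 11 higher and 1 lower, and of 11 genes of LXR and its targets all higher, with medians of 1.93, 1.65 and 1.83. Of 15 cholesterol synthesis enzymes 8 were called higher and 4 lower, with a median of 0.38, below the 1.18 of all genes.

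The interaction of 17 h with 4 h in marrow called 88.0% of 8844 genes, around a median of 1.27. As deposited, the effect at 17 h minus that at 4 h was 2.33 for Scap, 2.23 for Insig1, 1.55 for Srebf2, 1.54 for Soat1 and 0.77 for Insig2, all called in limma (adjusted p = 0.0024 for Insig2 and below for the others). For Stard4 it was -0.37 (adjusted p = 0.093), and -1.52 when centred on the median (adjusted p = 5.4e-06). Insig2 turned to -0.38, -0.40 and -0.47 under the centred, quantile and length scalings, and Srebf2 and Soat1 to -0.14 and -0.10 with the length trend removed. Srebf2 also lost its call with quantile normalization (0.16, adjusted p = 0.50) and when centred (0.40, adjusted p = 0.085). Between the longer fasts, hepatocytes at 12 h minus marrow at 17 h, 78.5% of 7082 genes were called around a median of -0.95, and the times differ. Insig1 differed by -5.45 (SE 0.21, adjusted p = 1.4e-09), rank 6 of 7082 by size. Srebf2 differed by -2.24, Scap by -2.07 and Stard4 by -1.46, and Insig2 by 0.72 (adjusted p = 0.011). Stard4 lost its call under the 3 scalings (-0.47 centred, -0.45 quantile, -0.06 length), Scap lost it under quantile normalization (-0.52, adjusted p = 0.11), and Srebf2 ranged from -1.25 to -0.84. The Insig2 difference was larger under them, at 1.72 centred, 1.86 quantile and 1.73 length.

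In spinal cord monocytes of mice with EAE, none of the 7 members passed the test in limma, at a background of 1.58% of 9079 genes higher and 0.859% lower. At an unadjusted p under 0.05 in limma there were 3, Srebf2, Scap and Stard4, beside 1950 of all 9079 genes. Srebf2 held 31.0, 29.6, 38.8 and 29.5 TPM in fasted libraries, against 59.5, 54.9, 54.5 and 62.4 TPM in fed ones (log2 fold change -0.83, 95% interval -1.27 to -0.39, adjusted p = 0.060). Each fasted library was below each fed one, and the fed ones were the highest Srebf2 values of the 39 libraries. Scap held 32.1, 39.4, 58.1 and 40.2 TPM in fasted libraries and 17.8, 17.0, 23.0 and 21.9 TPM in fed ones (1.03, 95% interval 0.48 to 1.59, adjusted p = 0.062). The ratio of Srebf2 to Scap was 0.781 ± 0.129 in fasted libraries and 2.95 ± 0.438 in fed ones (SD, n = 4 each). Stard4 held 8.24, 7.78, 4.44 and 9.37 TPM in fasted libraries and 12.2, 10.0045, 21.6 and 17.4 TPM in fed ones (-0.93, adjusted p = 0.15), again without overlap.

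Fed spinal cord libraries 1 and 2 stood apart from libraries 3 and 4. Of 10 neutrophil markers 9 were listed, and their sum was 23760, 9911, 15910 and 15150 TPM in the fasted libraries, against 168200, 173500, 12880 and 6851 TPM in the fed ones. Ly6g, the defining marker, was not listed in these files. Soat1 was at 126, 153, 144 and 184 TPM in fasted libraries and at 91.5, 70.6, 266 and 231 TPM in fed ones, low in the 2 fed libraries with the high marker sum. Its log2 fold change was 0.09, with a 95% interval of -0.84 to 1.02, and with fed libraries 3 and 4 as the only fed ones it turned to -0.72 (adjusted p = 0.052 in limma). In that same fit Srebf2 was at -0.84 (adjusted p = 0.031) and Stard4 at -1.31 (adjusted p = 0.030), both called. Centred on the median, Srebf2 was at -1.05 (adjusted p = 0.033) and Stard4 at -1.15 (adjusted p = 0.017). Without fed library 3, Srebf2 (adjusted p = 0.044) and Scap (adjusted p = 0.038) were called. Of 18 alternatives in limma, however, only 4 called Srebf2, 2 called Scap and 4 called Stard4. In others the adjusted p rose to 0.19 for Srebf2, 0.22 for Scap and 0.38 for Stard4. Other marker sums moved with the groups. The 3 listed of 10 lymphocyte markers were at 49.9 to 155.5 TPM in fasted libraries and 185 to 316 TPM in fed ones, and the 3 listed of 7 microglia markers at 142 to 166 TPM in fasted libraries and 189.8 to 544 TPM in fed ones, in neither case with overlap. The part of these cells in the members' levels was not tested beyond these values.

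Insig1 held 22.2, 38.4, 21.2 and 18.8 TPM in fasted spinal cord libraries and 21.5, 20.6, 32.4 and 41.7 TPM in fed ones, and Insig2 held 18.6, 23.1, 11.4 and 18.5 TPM in fasted libraries and 14.7, 14.5, 22.5 and 16.9 TPM in fed ones. Both overlapped, with 95% intervals of -0.91 to 0.52 and -0.59 to 0.66 on the log2 scale. Abcg1 was at 13.5, 18.9, 21.5 and 19.7 TPM in fasted libraries and 15.3, 14.5, 21.6 and 43.9 TPM in fed ones, where the fourth fed library was far above the rest. Of 17 cholesterol synthesis enzymes 3 fell and none rose, namely Sqle, Idi1 and Msmo1, with a median over the list of -0.47, against 0.26 over all genes. Sqle, which makes squalene epoxide, was at 3.40 ± 2.02 TPM in fasted libraries and 16.0 ± 5.90 TPM in fed ones (SD, n = 4 each; log2 fold change -1.99, adjusted p = 0.030 in limma). No gene of the SREBP processing, uptake, LXR, transfer, esterification or hydroxylase lists was called.

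Against the marrow fast of 17 h, the spinal cord effect was lower for Insig1 (-1.88, adjusted p = 4.6e-04 in limma), Srebf2 (-1.79, adjusted p = 3.5e-05), Soat1 (-1.58, adjusted p = 0.012) and Scap (-1.23, adjusted p = 0.0074), where 61.0% of 8628 genes were called around a median of -0.97. The regimens differ, and these values carry the shift of the fed marrow libraries of 17 h. Insig1 was at -1.02 centred, -0.80 with quantile normalization and -0.93 with the length trend removed. Soat1 lost its call when centred (-0.72, adjusted p = 0.058). Scap lost its call when centred (-0.37) and with quantile normalization (-0.01), and Srebf2 with quantile normalization (-0.59, adjusted p = 0.091). With the length trend removed Scap turned to 0.22 (adjusted p = 0.62), Srebf2 was at -0.27 (adjusted p = 0.50) and Soat1 at -0.08 (adjusted p = 0.86). Stard4, at -0.03 as deposited, was then at 1.49 (adjusted p = 7.7e-04).

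**Figure D4:**
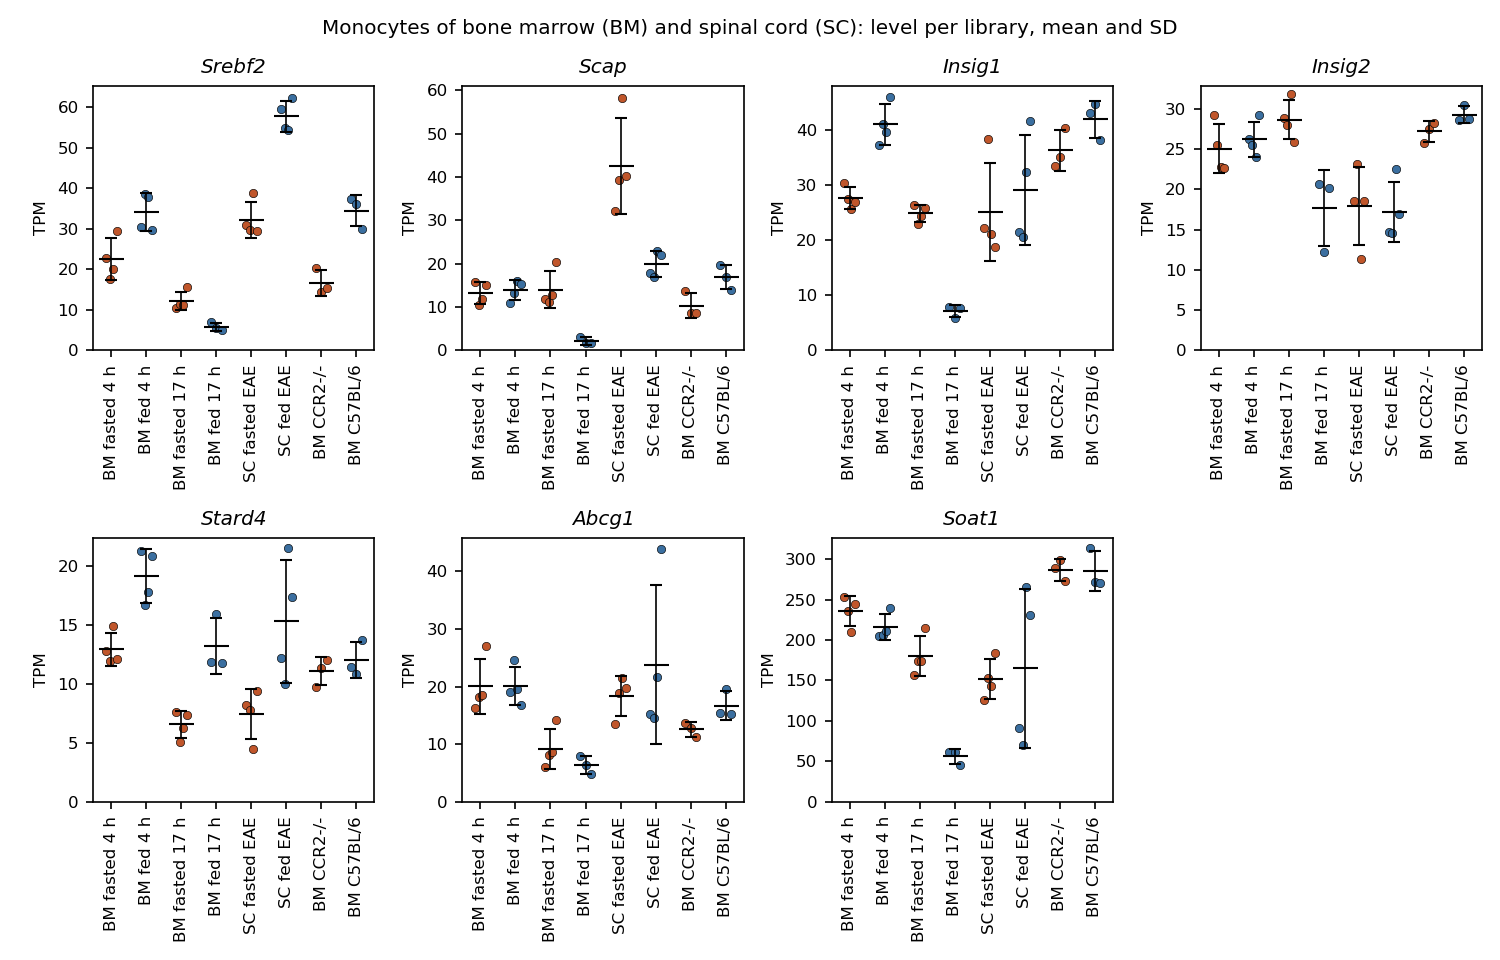
Level in TPM of the 7 listed members in monocytes of bone marrow (BM) and spinal cord (SC), 1 point per library, with the group mean and SD as bars, fasted or CCR2-/- (orange) left of fed or C57BL/6 (blue). In spinal cord the 4 fasted libraries lie at or below 38.8 TPM for Srebf2 and the 4 fed ones at or above 54.5 TPM.

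Without any fast, CCR2-/- marrow monocytes differed from C57BL/6 ones in Srebf2. The labels were checked on Ccr2 itself, which was at 62.6 ± 1.95 TPM in CCR2-/- libraries and 2470 ± 143 TPM in C57BL/6 libraries (SD, n = 3 each). Srebf2 held 20.3, 14.3 and 15.3 TPM in CCR2-/- libraries, against 37.3, 36.1 and 30.1 TPM in C57BL/6 ones. It fell by 1.02 on the log2 scale (log2 fold change -1.02, SE 0.15, adjusted p = 0.032 in limma), rank 58 of 9210 by size, where 3.74% of genes were called lower and 0.641% higher. The call was lost without either of C57BL/6 libraries 1 and 2 or of CCR2-/- libraries 2 and 3, at values of -0.98 to -0.92. Scap held 13.6, 8.57 and 8.55 TPM in CCR2-/- libraries and 19.6, 17.0 and 13.98 TPM in C57BL/6 ones, without overlap (-0.68, 95% interval -1.14 to -0.23, adjusted p = 0.072). Insig1, Insig2, Stard4, Abcg1 and Soat1 did not pass the test (adjusted p = 0.13 to 0.95), and for Soat1 the 95% interval was -0.18 to 0.20. The 2 listed of 10 lymphocyte markers summed to 51.9 to 58.7 TPM in CCR2-/- libraries and 39.2 to 48.7 TPM in C57BL/6 ones. Sums of listed microglia markers were 496.4 to 547.3 TPM in CCR2-/- and 441.5 to 467.5 TPM in C57BL/6 libraries. For sinusoidal endothelium they were 421.7 to 450.5 and 326.4 to 378.5 TPM, and for Kupffer cells and macrophages 1521 to 1577 and 1440 to 1516 TPM. The sums of the other listed markers overlapped, and the part of these cells in the members' levels was not tested.

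Srebf1 fell by 1.03 in CCR2-/- monocytes (log2 fold change -1.03, adjusted p = 0.019 in limma). Of 17 SREBP processing genes 3 fell and none rose, and of 17 cholesterol synthesis enzymes 1 fell and none rose, with a median of -0.15. Apoe, an LXR target that carries lipid, rose to 1884 ± 135 TPM in CCR2-/- libraries, against 760.2 ± 94.2 TPM in C57BL/6 ones (SD, n = 3 each).

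**Figure D5:**
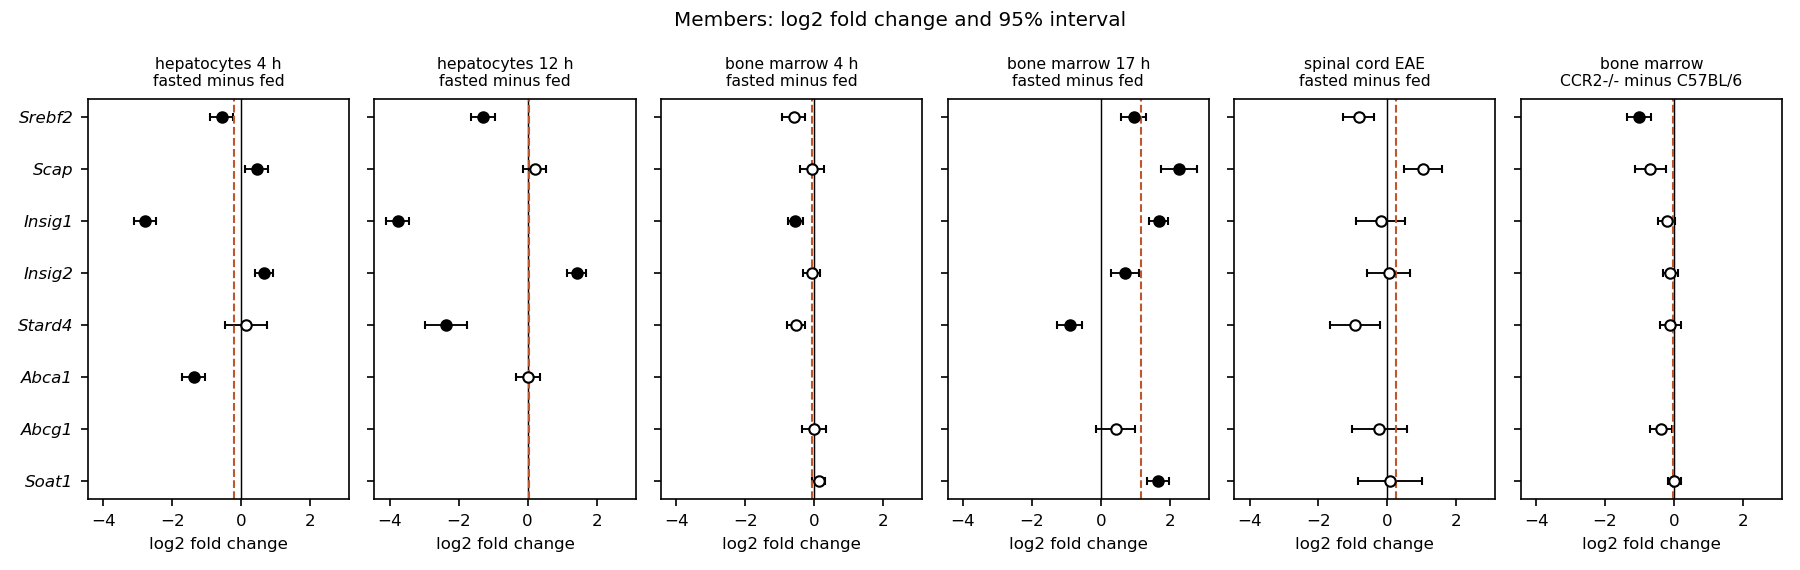
Log2 fold change and 95% interval of each listed member in the 6 comparisons of groups, with filled points for members called at an adjusted p under 0.05 and a dashed line at the median of all genes. Insig1 is lowest in both hepatocyte panels (-2.79 and -3.77), and the dashed line of the 17 h marrow panel stands at 1.18.

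Across all 12 groups, in levels set across separately normalized files, Insig2 was highest in hepatocytes, at 840 ± 34.6 TPM fasted for 12 h (SD, n = 3), 314 ± 9.93 TPM fed at 12 h (SD, n = 2), 172 ± 39.1 TPM fasted for 4 h (SD, n = 2) and 107 ± 4.40 TPM fed at 4 h (SD, n = 3), and no library of these 4 groups overlapped the next group. All 8 monocyte groups lay between 17.2 and 29.3 TPM for Insig2, each overlapping its neighbour in the order of means. Scap had the same split, with 71.3 to 136 TPM in hepatocyte groups and 2.11 to 42.4 TPM in monocyte groups. Insig1 was highest in fed hepatocytes of 4 h, at 202 ± 8.52 TPM (SD, n = 3), and of 12 h, at 169.5 ± 3.08 TPM (SD, n = 2). Fasted hepatocytes of 4 h, at 28.4 ± 3.58 TPM (SD, n = 2), overlapped marrow and spinal cord groups for Insig1, and only the fed marrow group of 17 h was below fasted hepatocytes of 12 h. Srebf2 was highest in fed spinal cord monocytes, at 57.8 ± 3.81 TPM (SD, n = 4). For Stard4 fed hepatocytes of 12 h were highest, at 23.0 ± 0.969 TPM (SD, n = 2), and fasted hepatocytes of 12 h lowest, at 3.76 ± 1.32 TPM (SD, n = 3).

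The genes most like each member were named by Pearson correlation of log2(TPM + 1), with the mean of each experiment taken off, over the libraries that list the member. Over 39 libraries and 4531 genes the genes most like Srebf2 included Wbp2 (r = 0.851) and Mid1ip1 (0.845). Insig1 was most like Hibadh (0.931), Mvd (0.919) and Tuba1c (0.906), and Stard4 like Fabp5 (0.851), Ethe1 (0.789) and Msmo1 (0.763). Insig2 was most like Nceh1 (0.945), Sf3b1 (0.944) and Prpf38b (0.940), and Scap like Rxrb (0.952), Coro1c (0.950) and Klhdc3 (0.949). Over 29 monocyte libraries Soat1 was most like B3galnt2 (0.982) and Abcg1 like Fyn (0.774), and over 10 hepatocyte libraries Abca1 was most like Mia2 (0.998). The libraries share experiments and the shift of the fed marrow libraries of 17 h, so these are descriptions with no p.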

How the data were processed

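The submitters' processing notes name kallisto 0.44.0 and GRCm38 for the 39 libraries of the authors. The deposited values were read as TPM per gene, since they are not whole, sum to 982922 to 994023 per library and fall with transcript length. Counts divided by the library total without a length step could not be fully set aside. The annotation, the sum over transcripts and the filter behind 8980 to 9449 listed genes are not stated in the material used here. Without counts, no interval for counting error could be given, and genes that share reads with near copies cannot be checked.

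Gene names that had turned into dates (13 to 15 per file) were left out. Values were log2(TPM + 1), for genes with a mean of at least 1 TPM over the libraries fitted. Comparisons (12 in all) were fitted with limma 3.58.1 in R 4.3.3 (mean-variance trend, robust empirical Bayes), with Benjamini-Hochberg adjustment over all genes tested and 0.05 as the threshold. The 10 hepatocyte libraries shared 1 fit, each monocyte experiment had its own, and differences between experiments used their shared genes and libraries. The fit was tested on simulated data. The members and lists were chosen with earlier results of these data known. All listed members are named. Of each list at most 3 genes per comparison could be named, those called without overlap of groups, at 10 TPM or more in the higher group and with the largest change, beside 14 key genes named whatever their values, of which 1 is not reported here.

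Removing, library by library, the trend of log2 levels along the longest coding transcript of each gene (loess, span 0.5, GENCODE M21 lengths) and keeping only fed spinal cord libraries 3 and 4 were alternatives chosen after seeing the data. The length measure itself was changed once, from the median to the longest coding transcript. Promoter windows and motif matches were read from RefSeq tables in Python 3.11.15, and the motifs were chosen after the windows had been read. A GC box was also searched and left out after its matches were seen.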

Additional observations from a re-analysis of the deposited data

Results flagged for a closer look

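In 35 member and group pairs with 4 libraries, 2 held a library far from its group, and chance flags about 1 in 20 such groups. Fasted spinal cord library 3 held 38.8 TPM of Srebf2, above the 29.5 to 31.0 TPM of the other fasted ones. Marrow library 4 of the 17 h fast held 20.3 TPM of Scap, above the 11.2 to 12.7 TPM of the others.

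The fasting effect in hepatocytes differed between 12 h and 4 h in limma's interaction contrast for Abca1 (1.40), Insig1 (-0.98), Insig2 (0.75), Srebf2 (-0.72) and Stard4 (-2.50). In marrow it differed between 17 h and 4 h for Insig1 (2.23), Insig2 (0.77), Scap (2.33), Soat1 (1.54) and Srebf2 (1.55). Hepatocytes differed from marrow at 4 h for Insig1 (-2.24) and Insig2 (0.73). At the longer fasts (12 h in hepatocytes, 17 h in marrow) they differed for Insig1 (-5.45), Insig2 (0.72), Scap (-2.07), Srebf2 (-2.24) and Stard4 (-1.46). Spinal cord differed from marrow at 17 h for Insig1 (-1.88), Scap (-1.23), Soat1 (-1.58) and Srebf2 (-1.79). All of these are log2 differences of effects, and those with marrow at 17 h carry the shift of its fed libraries, in which the median gene moved by 1.18.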

How the results depend on the processing

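Of 1411 member values under alternatives, 1299 kept their side of the threshold. Among these, some values that were called neither before nor after changed sign, such as Soat1 in spinal cord. With the direction kept, 63 lost the threshold and 28 passed it. A further 21 reversed and were called before or after the change. The cause of a change was not tested. In hepatocytes at 4 h, 3 of 6 members were called with the replicate block and 3 of 6 when the libraries of 4 h were fitted alone. The fit of 4 h alone called 1744 genes, against 3331 of 8966 in the fit of all 10 libraries. In marrow at 4 h no member (0) was called after quantile normalization, after centring on the median, without the mean-variance trend or with the block. At 17 h 3 members were called at a mean of at least 10 TPM, where only Insig1, Insig2 and Soat1 were tested. At the usual filter 75.4% of all genes were called higher there and 14.0% lower. Reversals at 17 h under quantile, centred and length scaling were -0.95, -0.66 and -1.18 for Abcg1, -0.43, -0.39 and -0.45 for Insig2, and -0.39, -0.14 and -0.65 for Srebf2. For 17 h minus 4 h they were -1.03, -0.70 and -1.25 for Abcg1 and -0.40, -0.38 and -0.47 for Insig2, and with length scaling -0.10 for Soat1 and -0.14 for Srebf2, where 5147 genes were called. In spinal cord 783 genes and 2 members were called with quantile normalization, 687 and 2 when centred, 509 and 2 with length scaling, 774 and 2 with fed libraries 3 and 4 only, 138 genes at 10 TPM and 119 with the block. For CCR2-/- 48 genes were called without the trend, 1423 genes and 2 members with the block, and 720 genes with length scaling. For hepatocytes minus marrow at 4 h, 993 genes and 1 of 5 members were called with the block and 4 of 5 with length scaling. As deposited, 24.7% of genes were called there. At the longer fasts 3 of 5 members were called with quantile normalization, where 78.5% of genes were called as deposited. For spinal cord minus marrow at 17 h, length scaling called 2764 genes and 2 members, Scap turned to 0.22, and Stard4 to 1.44 (quantile), 0.83 (centred) and 1.49 (length).

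With 1 library left out, the members called were 2 to 3 for fed hepatocytes at 12 h minus 4 h, 0 to 1 in marrow at 4 h, 0 to 2 in spinal cord and 0 to 2 for CCR2-/-. The genes called were 1603 to 3731 for 12 h minus 4 h in hepatocytes, 14 to 145 in marrow at 4 h, 22 to 745 in spinal cord and 11 to 1060 for CCR2-/-. Where 1 library remained in a group, it was assumed to vary like the others. Deviations of same-numbered libraries from their group means correlated at -0.34 to 0.32, in no comparison of 3 or more pairs above 0.1 for every pair. For hepatocytes at 4 h, with fewer pairs, they correlated at 0.20 and 0.16, and hepatocytes were not part of the next check. Of 28 libraries in the 4 monocyte comparisons that had a partner, 5 correlated best with it (4 of 6 for CCR2-/- and C57BL/6), so the numbers were not taken to pair the libraries.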
